A study of Mus musculus with 23 samples.

Results

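The data described here are RNA libraries of the proximal small intestine of mice that were fasted, given doxorubicin and refed, compared between late harvests (12 and 24 h after the drug) and early ones (2 and 6 h). They make up 8 of the 23 libraries of the study, 4 late and 4 early, and were chosen by the labels for feeding, drug and time. Mice fasted for 24 h received doxorubicin, an anthracycline that damages DNA and poisons topoisomerase II, in a dose of 20 mg/kg injected into the peritoneum, and were refed for the same number of hours. At each of the 4 times there was 1 library from a wild-type mouse and 1 from a Ddit4-/- mouse, so that each phase held 2 libraries per genotype and no library had a replicate of its own genotype and time. Ddit4 encodes an inhibitor of the growth kinase complex mTORC1. All mice were labelled male, and neither age nor strain is given in the sources used here. The tissue was whole proximal intestine, epithelium with its underlying layers. Other libraries served for comparison: 7 from mice fed ad libitum and given the same dose (3 early, 4 late), and 4 from fasted, refed and undrugged mice at 2 and 6 h. Undrugged mice of both genotypes gave 2 more after the fast alone and 2 more fed ad libitum, which enter the fits of all 23 libraries. No undrugged refed library at 12 or 24 h was analysed here, so hours since the drug, hours since the return of food and the clock time of harvest cannot be told apart.

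The 4 wild-type libraries carry a title that says untreated and a drug label that says doxorubicin, and the drug label was followed. No knockout library of the 8 has such a title, so genotype and this doubt over the drug cannot be told apart. Ddit4 (mm10, chromosome 10, 59949669 to 59951834) stood at 375, 66.9, 379 and 329 normalized reads at 2, 6, 12 and 24 h in the wild type and at 2.21, 4.77, 0 and 0 in the knockout, so the reads followed the genotype labels in all 8 libraries. The wild-type 6 h value was the low one of its genotype. The early libraries held 12.5 to 15.47 and the late ones 14.4 to 23.43 reads (in units of 1e+06) that fell in genes, and 1 read stood for 0.81 to 1.393 normalized reads. The wild-type 6 h library stood apart from the rest: its correlations with the other 7 lay between 0.912 and 0.948 (Pearson r across genes of 1 library against another, which are not independent), and it had a loading of 0.85 on a first principal component that held 26.5% of the variance, where no other loading exceeded 0.4 in size. The wild-type 24 h library held pancreatic transcripts, with 944 normalized reads of Ctrb1, a pancreatic protease, against at most 36.5 in the other 7. All 8 libraries held Y-linked reads, while among the undrugged refed ones the knockout library at 2 h lacked them against its label, and the wild-type library at 6 h held 40101 normalized reads of Ctrb1. Limma counts of genes past a test were recomputed without each of these libraries whose group the comparison contrasts. The fits of single times were also repeated without the undrugged ones. Counts of list members without overlap were recomputed where the text gives any. The text or the closing section gives those that moved. The fit of late against early to all 23 libraries was repeated without the undrugged ones only, and edgeR and DESeq2 counts were not recomputed.

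In the proximal intestine, stem cells at the crypt base divide to renew absorptive enterocytes, mucus-secreting goblet cells, hormone-secreting enteroendocrine cells and chemosensory tuft cells on the villus, while Paneth cells guard the crypt. Doxorubicin acts most on dividing cells, in which p53 turns on arrest and death genes. Food returning after a fast switches the same tissue from fat oxidation and gluconeogenesis to protein synthesis, which draws on heat shock chaperones, and shifts the phase of the circadian clock.

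Promoters of 3 heat shock genes are shown first because chaperones were the pathway list with the most genes that were lower in every late library. Each runs from 250 bases before to 50 bases after the start of the gene (RefSeq, GRCm38.p6), 5′ to 3′ on the strand of the gene, with the core of the heat shock element, GAANNTTC, in capitals. The motif was chosen after the values were seen, and all promoters shown hold it. Hspe1 and Dnaja1 were lower in every late library and Hsph1 was not. Hspd1, which was lower too, holds no core in the first window listed for it and is not shown. Hsph1 (chr5.0:149636287-149636586, minus strand) encodes an HSP110 chaperone, Hspe1 (chr1.0:55087898-55088197, plus strand) the mitochondrial co-chaperonin HSP10 and Dnaja1 (chr4.0:40722218-40722517, plus strand) an HSP40 co-chaperone.

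Hsph1: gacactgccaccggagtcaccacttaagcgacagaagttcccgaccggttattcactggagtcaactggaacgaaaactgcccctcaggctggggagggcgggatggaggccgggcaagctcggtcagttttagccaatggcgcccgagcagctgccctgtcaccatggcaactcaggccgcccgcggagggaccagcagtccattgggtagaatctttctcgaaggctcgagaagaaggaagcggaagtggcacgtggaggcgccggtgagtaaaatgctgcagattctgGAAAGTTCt

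Hspe1: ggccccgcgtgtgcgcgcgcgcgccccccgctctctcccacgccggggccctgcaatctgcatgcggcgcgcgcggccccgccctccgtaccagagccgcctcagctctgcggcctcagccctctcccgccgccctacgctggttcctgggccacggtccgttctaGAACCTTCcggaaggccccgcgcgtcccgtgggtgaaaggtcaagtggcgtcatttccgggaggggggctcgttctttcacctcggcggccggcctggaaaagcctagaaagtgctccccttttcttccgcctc

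Dnaja1: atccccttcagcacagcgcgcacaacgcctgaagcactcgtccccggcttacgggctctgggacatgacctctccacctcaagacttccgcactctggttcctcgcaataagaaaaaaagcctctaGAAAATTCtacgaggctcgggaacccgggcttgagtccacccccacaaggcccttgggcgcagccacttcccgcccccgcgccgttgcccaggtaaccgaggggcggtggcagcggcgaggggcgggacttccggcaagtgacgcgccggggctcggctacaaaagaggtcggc

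The core lay 41 bases after the start of Hsph1, 84 bases before that of Hspe1 and 124 bases before that of Dnaja1. On either strand, and leaving overlaps with other motifs aside, 7.95% of 27025 promoters of the same length held it (2149 promoters). Among the 14 heat shock chaperone genes, 11 were in the promoter table and 8 of those held the core: 2 of the 3 whose late libraries all lay below the early ones, and 6 of the other 8. These counts take the first window listed for each gene. A second window listed for Hspd1 shares 285 bases with that of Hspe1, the neighbouring gene on the opposite strand. The core of Hspe1 lies within the shared stretch. These matches describe letters in a window and not factor binding.

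Across 11939 genes tested, no gene passed the test of late against early (limma on log2(normalized reads + 1) with genotype as a covariate, 5 residual degrees of freedom, 0% called at an adjusted p of 0.05). An unadjusted p under 0.05 was reached by 694 genes, and the smallest adjusted p was 0.156, that of Hsp90aa1. The edgeR quasi-likelihood test on recovered reads also called 0, with 679 genes at an unadjusted p under 0.05, while DESeq2 called 19 (7 higher, 12 lower). A limma fit of all 23 libraries, which borrows its spread from every condition, called 11, 9 without the 3 undrugged knockout libraries that lack Y-linked reads and 16 without the undrugged wild-type 6 h library. The 11 included Pim1 and Tent5a, higher late, and Hsp90aa1, Hsph1, Olfm4, Tfrc, Pdhb, Cyp3a44, Myh11 and Id2, lower late. In the test on the 8 libraries, 2 and 6 h stand in as replicates of early and 12 and 24 h of late. Differences within a phase thus count as spread there. A p-value of that test sets the difference against the spread of these 8 libraries alone, which may in part be technical. In the fit of all 23 libraries each time is a condition of its own, so differences between the times of a phase do not enter its spread. The median difference of all genes was 0.02 on the log2 scale. Every late library lay above every early one for 227 genes (1.9% of those tested) and below for 218 (1.83%), and counts of list members without overlap are read against these shares. Differences were positive for 52.6% of all genes and negative for 47.4%. Of 364 genes with a log2 difference above 1, 38 were among the former, and of 288 with one below -1, 60 were among the latter.

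By the rule for named genes, none was named from the comparison of late with early, since none passed. The genes described below come from a fixed set (among them Olfm4, Lgr5, Mki67, Lyz1, Cdkn1a, Mdm2, Ccng1, Per2, Dbp, Arntl, Fkbp5, Pdk4, Pck1, Insig1, Duox2 and Reg3g), from the tests of the differences and the single times, and from the gene lists. All others were chosen after their values were seen. Values are normalized reads, and where a time has a pair of values the wild type comes first.

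Of 14 heat shock chaperones, which fold new and damaged proteins, 5 were lower in every late library than in any early one, and none passed the test on the 8 libraries. Hsp90aa1, the inducible cytosolic HSP90 (mm10, chromosome 12, 110690605 to 110702728), stood at 1787 and 2081 at 2 h, 1884 and 1908 at 6 h, 798 and 1084 at 12 h and 799 and 986 at 24 h. The groups did not overlap, and the gap between them was wider than the range within either phase. Its log2 difference was -1.07 ± 0.13 (SE, n = 4 against 4), with an adjusted p of 0.156 in limma on the 8 libraries, 0.00679 in limma on all 23 and 1.28e-08 in DESeq2. Its constitutive relative Hsp90ab1 ranged from 3703 to 9033 early and from 3314 to 3660.4 late (log2 -0.81 ± 0.23). The mitochondrial chaperonin Hspd1 ranged from 1043 to 2394 early and from 666 to 928 late, and its partner Hspe1 from 365 to 794 and from 262 to 309.6. Dnaja1 differed less, by -0.33 ± 0.14 on the log2 scale, from 2153 to 2556 early and from 1689.8 to 2024 late. These 5 were the members of 14 that did not overlap, against 1.83% of all genes, and the list's median was -0.58, with 11 of 14 negative. Without the wild-type 2 h library the median was -0.31. Without the wild-type 6 h library 10 of 14 lay below (all genes: 3.94%), without the wild-type 24 h library 6 (3.1%), and in the knockout alone 10 (18%).

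The other chaperones showed where the early libraries parted among themselves. Hsph1 stood at 552 and 855 at 2 h, 136 and 250.5 at 6 h, 74.0 and 134 at 12 h and 155 and 135 at 24 h. It was high at 2 h and already low at 6 h, and the 6 h minus 2 h difference of -1.89 ± 0.37 passed (adjusted p = 0.0456, limma). Hspa1b, an inducible HSP70 whose reads cannot be cleanly divided from those of its near-identical neighbour Hspa1a, stood at 355 and 306 at 2 h and between 15.2 and 184 thereafter. Dnajb1, another HSP40, showed no such pattern, at 1018 to 1606 early and 1041 to 2417 late (log2 0.20 ± 0.27). In refed mice without the drug, Hsp90aa1 stood at 5774 and 3810.2 at 2 h and at 1978 and 2405 at 6 h, and Hsph1 at 5269 and 2966 and at 139 and 218. At 2 h these chaperones were thus higher without doxorubicin than with it, a difference not tested here, and at 6 h their values lay nearer to each other. Beyond the list, St13, a co-chaperone that links HSP70 to HSP90, ranged from 689 to 907 early and from 429 to 569 late (log2 -0.72 ± 0.16).

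**Figure D1:**
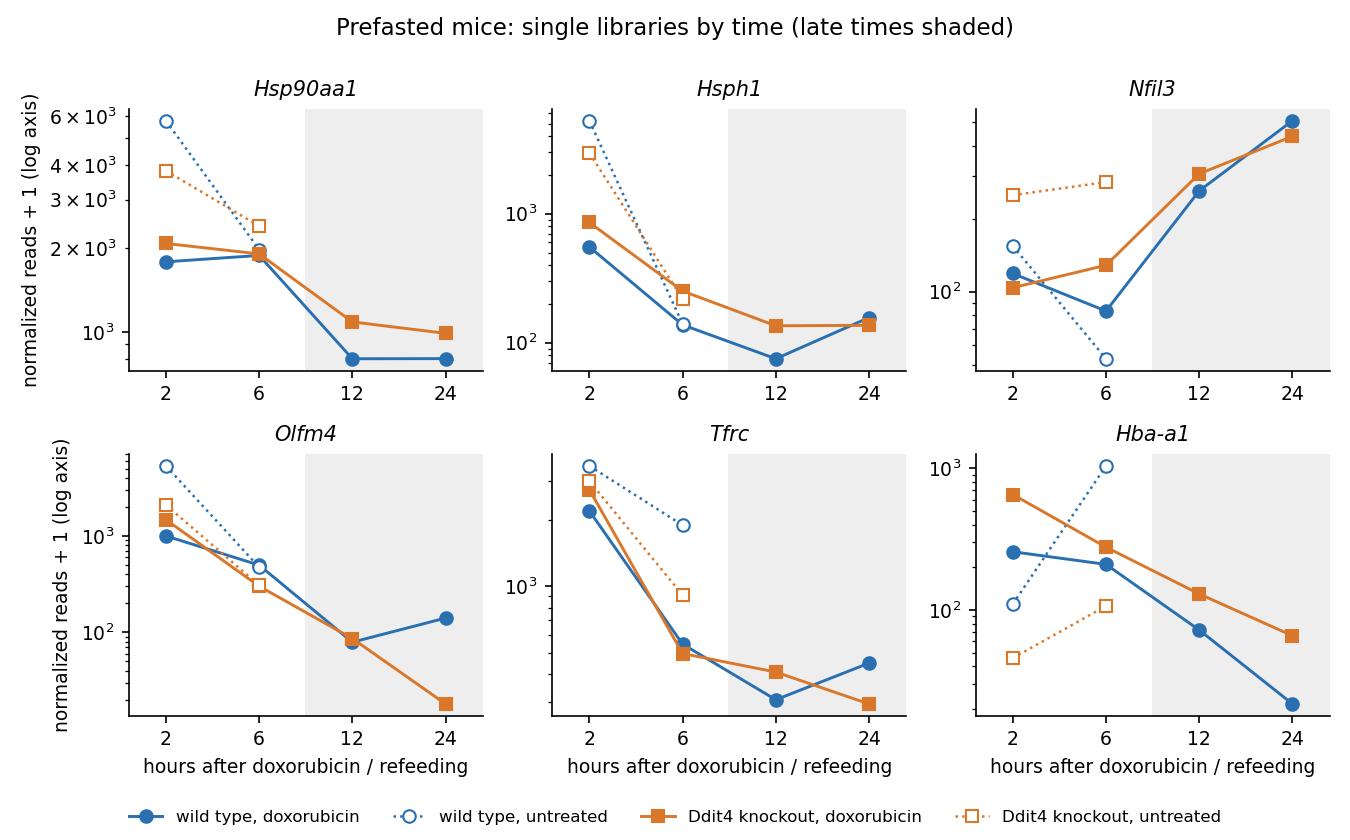
Normalized reads plus 1 (log axis, each panel with its own range) of 6 genes against hours after doxorubicin, with times evenly spaced. Each point is 1 library; filled symbols are doxorubicin and open ones undrugged refed mice, circles wild type and squares knockout, and the late times are shaded. Hsp90aa1 stands at 1787 to 2081 in the early and 798 to 1084 in the late drug libraries, while Nfil3 goes from 82.2 to 128 early to 260.0 to 508 late.

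The clock genes showed the widest separation in Nfil3. Nfil3 encodes a transcription factor that represses D-box genes (mm10, chromosome 13, 52967209 to 52981073). Its values were 118 and 103 at 2 h, 82.2 and 128 at 6 h, 260.0 and 306 at 12 h and 508 and 437 at 24 h. All late libraries lay above all early ones, with a log2 difference of 1.77 ± 0.27 and an adjusted p of 0.35 in limma (5.89e-06 in DESeq2). Mice fed ad libitum had nearly the same difference, 1.78 on the log2 scale. Undrugged refed libraries ranged from 51.8 to 283, and the knockout one at 6 h (283) lay within the late range without the drug.

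Arntl, the core activator also called Bmal1, ranged from 143 to 368 early and from 271 to 791 late, which overlapped (0.84 ± 0.29). Of 6 genes of the Arntl phase tested, 5 had a positive difference, with a median of 0.56 (0.69 fed ad libitum). Nfil3 was the only one without overlap, where 1.9% of all genes lay above. Genes of the opposite phase differed less evenly. Dbp, a D-box activator, had a difference of -0.94 ± 0.45, Nr1d1, a repressor of Arntl, -0.78 ± 0.29 and Per2, a core repressor, -0.45 ± 0.33, while Per1 had 0.67 ± 0.29. All of these overlapped, as did the remaining members of that list of 11, whose median was -0.45. Per3 differed within both phases, from 46.7 and 31.0 at 2 h to 347 and 310.1 at 6 h and from 199 and 174 at 12 h to 44.9 and 149 at 24 h. In promoters, the E-box CACGTG was found in 5 of 16 clock genes in the table (7.24% of all promoters) and the D-box TTATGTAA in 1, Per3, with matches 205 and 158 bases before its start (0.955% of all promoters).

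Among 14 stem cell genes of the crypt none passed, and Olfm4 was the 1 that lay below without overlap (1.83% of all genes did). Olfm4, a secreted glycoprotein that marks crypt base stem cells (mm10, chromosome 14, 79984081 to 80023139), stood at 998 and 1469 at 2 h, 496 and 299 at 6 h, 77.8 and 85.0 at 12 h and 139 and 17 at 24 h. The groups did not overlap, with a log2 difference of -3.41 ± 0.62 (adjusted p = 0.551 in limma on the 8 libraries, 0.00522 on all 23, 0.00621 in DESeq2). Mice fed ad libitum showed a difference of -2.97. Undrugged refed mice had 5326 and 2089 at 2 h and 471 and 306 at 6 h, so values were also lower at 6 h than at 2 h without the drug.

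Early and late values of the other stem cell genes overlapped. Lgr5, the receptor that defines these cells, was close to the counting limit, at 3.5 to 27.6 early and 0 to 18.4 late. Smoc2, a matrix protein of the same cells, ranged from 38.2 to 177 early and from 20.9 to 40.3 late (-1.47 ± 0.49). Ascl2, their master transcription factor, stood at 66.5 and 80.7 at 2 h and at 15 or less in all later libraries. The 14 stem cell genes had a median of -0.48, 12 of them negative. The median was -0.25 without the knockout 2 h library and -0.77 without the wild-type 24 h library, where 2 of 14 lay below (all genes: 3.1%). In the knockout alone the median was -0.97 and 6 of 14 lay below, where 18% of all genes did. In mice fed ad libitum the median of the list was 0.21, unlike the negative value of Olfm4.

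None of the listed proliferation genes passed. Mki67, a nuclear protein of cycling cells, stood at 217 and 288 at 2 h, 80.8 and 81.1 at 6 h, 96.8 and 62.6 at 12 h and 96.7 and 52.7 at 24 h. The 6 libraries from 6 h on lay between 52.7 and 96.8, with late and early values mixed. Summed G2/M genes reached 1728 and 3145 normalized reads at 2 h, 959.6 and 849 at 6 h, 995 and 686 at 12 h and 1578 and 961 at 24 h. The knockout 2 h library was the high one, and the wild-type 24 h library stood near the wild-type 2 h one. Spc25, a kinetochore subunit outside the lists, did not overlap (34.6 to 95.7 early, 8.05 to 29.9 late, log2 -1.83 ± 0.43), and DESeq2 called it (adjusted p = 0.0358). Of 27 G2/M genes, 20 had a negative difference, the median was -0.44 and 1, the checkpoint kinase Bub1, lay below without overlap. Of 28 S phase genes, 23 were negative, with a median of -0.335, and 1, the helicase subunit Mcm7, lay below. The S phase median was 0.038 in the wild type, -0.688 in the knockout and 0.137 in mice fed ad libitum. Counts of 1 in 27 and in 28 are near the 1.83% of all genes. Without the wild-type 6 h library they were 2 and 2 (all genes: 3.94%), and without the wild-type 24 h library 3 and 2 (3.1%).

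Paneth cell genes were highest in 1 early library. Lyz1, Paneth cell lysozyme, stood at 2236 and 6685 at 2 h, 1178 and 1950.0 at 6 h, 847 and 702 at 12 h and 2161 and 1106 at 24 h. The summed Paneth genes reached 32365 normalized reads in the knockout 2 h library, against 4433 to 8450 in the other early and 2898 to 7612 in the late libraries. Their median difference was -1.085 in all 8 libraries, -0.10 in the wild type and -1.995 in the knockout, with 14 of 15 negative. The 1 without overlap was Defa26, a defensin with near-identical copies, where 1.83% of all genes lay below. Without the wild-type 6 h library 4 of 15 lay below (all genes: 3.94%), and without the wild-type 24 h library 3 (3.1%). The G2/M genes split in the same way, at 0.20 in the wild type and -1.10 in the knockout. Whether crypt content differed between mice was not tested, and in bulk tissue fewer cells of a type and less RNA per cell cannot be told apart.

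Of the secretory villus lineages, 4 of 12 goblet, 2 of 11 tuft and 2 of 12 enteroendocrine genes were higher in every late library than in any early one (1.9% of all genes), and none passed. Muc2, the gel-forming mucin of goblet cells, stood at 6957 and 10729.7 at 2 h, 10079 and 12109 at 6 h, 18099 and 18308 at 12 h and 12528 and 14824 at 24 h. Every late library was above every early one (log2 0.69 ± 0.20, adjusted p = 0.85). Goblet genes Tff3, a trefoil peptide (0.26 ± 0.16), Fcgbp, a mucus-binding protein (0.50 ± 0.21), and Zg16, a bacterium-binding lectin (0.38 ± 0.22), also had no overlap. These 4 of 12 stood against 1.9% of all genes, and the list had a median of 0.32 with 9 positive. Without the wild-type 24 h library 5 of 12 lay above (all genes: 3.05%). Without the wild-type 6 h library the 4 stood against 3.99%, and the median was 0.20. In the knockout alone it was 0.19. In mice fed ad libitum the goblet median was 0.002.

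Tuft cell genes had a median of 0.48, with 10 of 11 positive (52.6% of all genes) and 2 without overlap (1.9%). In mice fed ad libitum the tuft median was 0.62 and the enteroendocrine one -0.24. Sh2d6, an adaptor with an SH2 domain, was among the tuft genes without overlap (145 to 224 early, 252 to 441 late, log2 0.83 ± 0.22). Enteroendocrine genes had a median of 0.335, 10 of 12 positive, and 2 without overlap, the hormones secretin (Sct, 0.45 ± 0.18) and somatostatin (Sst, 0.54 ± 0.19). The low early values of both hormones came from the wild-type 6 h library, at 545 for Sct and 698 for Sst, against at least 794 and 1140.2 in the other early libraries. Without that library 3 tuft and 2 enteroendocrine genes lay above (all genes: 3.99%), and without the wild-type 24 h library 2 and 3 (3.05%).

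Absorptive enterocyte genes, 24 in number, had a median of 0.07, with 15 positive. Lactase (Lct) and trehalase (Treh), both brush border disaccharidases, were the 2 without overlap, against 1.9% of all genes. Lct stood at 56816 and 24957 at 2 h, 59279 and 63483 at 6 h, 67401 and 83185 at 12 h and 79771 and 73799 at 24 h, a log2 difference of 0.66 ± 0.31. The knockout 2 h library was the low one. Sis, the sucrase-isomaltase of the same membrane, had a difference of -0.15 ± 0.20.

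**Figure D2:**
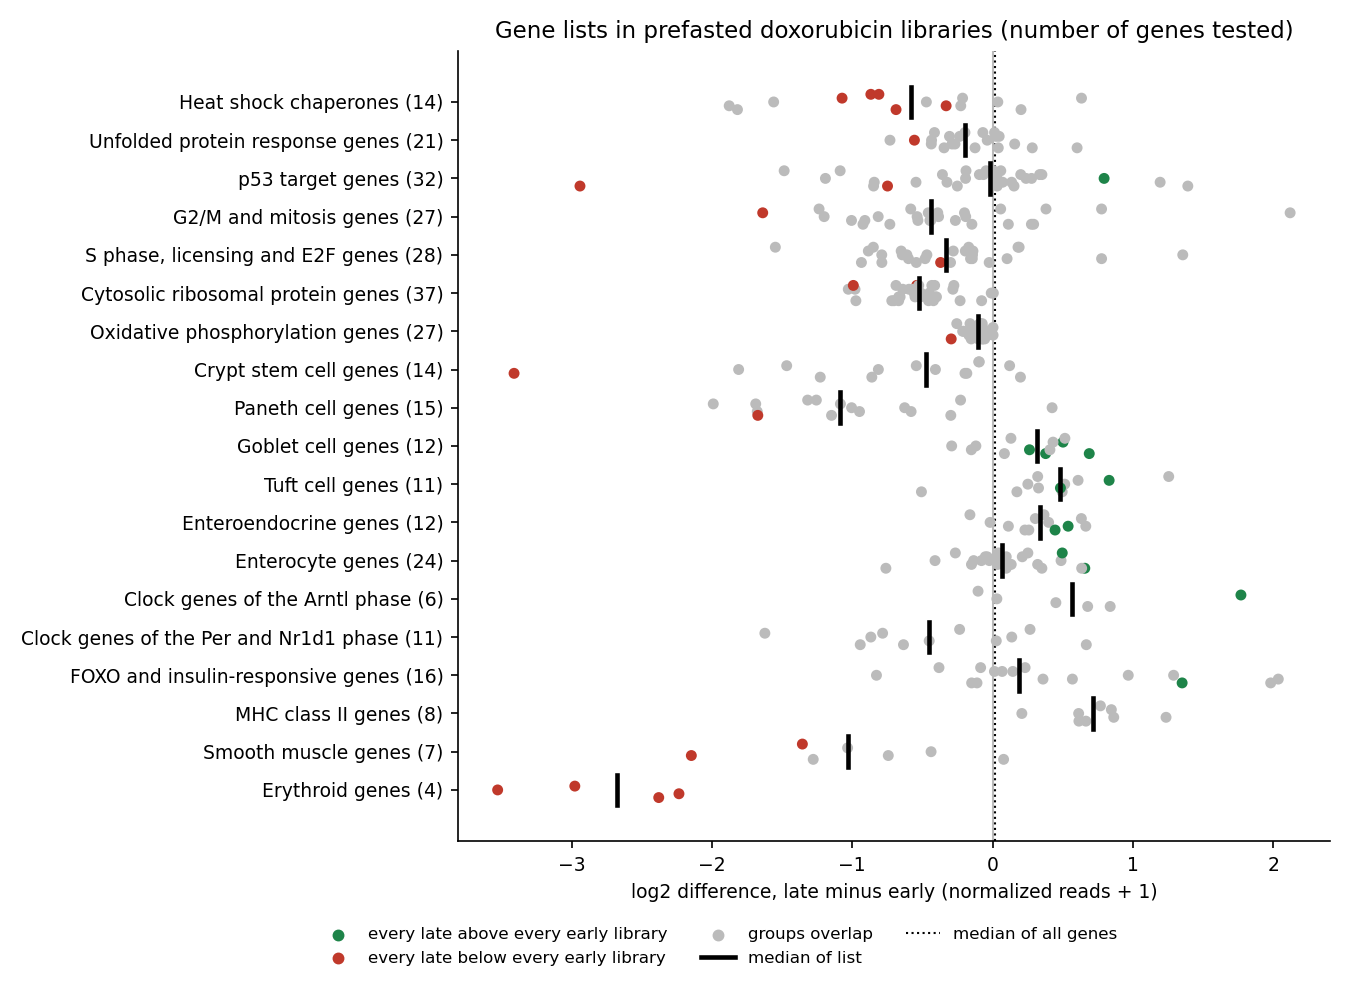
Log2 difference, late minus early, of each tested gene in 19 lists (points), with the median of each list (black bar), 0 (grey line) and the median of all genes (dotted). Green and red mark genes whose late libraries all lie above or below the early ones; heat shock chaperones show 5 such genes below and goblet cell genes 4 above.

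Targets of p53, the list the drug bears on most directly, had a median difference of -0.02. The median was 0.091 in the wild type and -0.294 in the knockout. Cdkn1a, the cell cycle inhibitor p21, stood at 8133 and 7361 at 2 h, 4848 and 5327 at 6 h, 9449.65 and 6209.84 at 12 h and 7198 and 5588 at 24 h. Its difference was 0.15 ± 0.22 (adjusted p = 0.948), and early and late overlapped. Mdm2, the ligase that degrades p53, had -0.33 ± 0.29, and Ccng1, cyclin G1, 0.03 ± 0.15. Undrugged refed libraries had 5431 to 6519 of Cdkn1a, inside the range of the drug libraries.

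Of 32 p53 targets, 1 lay above without overlap (1.9% of all genes) and 2 below (1.83%), counts that are not far from those shares. Gdf15, a secreted stress hormone (mm10, chromosome 8, 70629393 to 70632456), stood at 133 and 281 at 2 h, 57.1 and 94.2 at 6 h, 36.1 and 5.37 at 12 h and 13.8 and 16.2 at 24 h, a difference of -2.94 ± 0.63 (adjusted p = 0.85 in limma, 0.00108 in DESeq2). Plk2, a polo-like kinase, was lower late by -0.75 ± 0.27. Btg2, an antiproliferative gene (mm10, chromosome 1, 134075170 to 134079120), was higher, at 1495 and 1290.5 at 2 h, 1777 and 1713 at 6 h, 2301 and 2587 at 12 h and 3613 and 2476 at 24 h (0.79 ± 0.18). Of the 32 differences 16 were negative. Without the wild-type 24 h library 4 of 32 lay below (all genes: 3.1%). Btg1, a relative of Btg2 outside the list, was also higher (2940.4 to 5098 early, 5718 to 7726 late). Pmaip1, the death gene Noxa, stood at 6851, 3846 and 9344 in 3 late libraries but at 1540.4 in the knockout at 12 h, against 1520.5 to 1985 early.

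Pck1, Pdk4 and Irs2, fuel and signalling genes that insulin restrains, were high late in the wild type and lower in the late knockout libraries. Pck1, the gluconeogenic enzyme PEPCK (mm10, chromosome 2, 173153048 to 173159273), stood in the wild type at 2144 at 2 h, 1283 at 6 h, 26009.8 at 12 h and 32583 at 24 h. In the knockout it stood at 1267, 2866, 3145 and 1062 at the same times. The late wild-type libraries were the only ones above 3145 of the 8. Late minus early was 4.13 on the log2 scale in the wild type and -0.06 in the knockout. The difference between genotypes, -4.19 ± 0.77, had the smallest p of all genes but did not pass (limma adjusted p = 0.803, n = 2 per genotype and phase). Only the wild-type libraries have titles that say untreated, so genotype and drug cannot be told apart in such differences, here and below. Fasted undrugged mice had 22107.5 and 32972 normalized reads, and ad libitum drug libraries 4045 to 7736 early and 7841 to 21925 late.

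Pdk4, which blocks pyruvate oxidation, followed the same order, at 1189 and 592 early and 7499 and 7648 late in the wild type, and at 443 and 1245 early and 1988 and 834 late in the knockout. Irs2, the insulin receptor substrate, stood at 362 to 408 in the 4 early libraries and at 1364 and 426 at 12 h and 1656 and 975 at 24 h. It was the only one of 16 FOXO and insulin-responsive genes without overlap, where 1.9% of all genes lay above (1.35 ± 0.31, DESeq2 adjusted p = 0.00799). The list had a median of 0.19. Insrr, an insulin receptor relative, went from at most 4.77 early to 20.6 to 29.2 late, a value of few reads. Pim1, a growth factor-induced kinase, had 478 to 1119 early and 1081 to 2328 late (1.12 ± 0.29, adjusted p = 0.0278 in limma on all 23 libraries). Glucocorticoid-responsive genes, 14 in number, had a median of 0.60 and none without overlap. In that list Fkbp5, an HSP90 co-chaperone, stood at 4479 and 5739 at 2 h, 564 and 1208 at 6 h, 8374 and 1359.7 at 12 h and 3452 and 3617 at 24 h.

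The test of whether late against early differed by genotype called 0 genes (0%, 685 at an unadjusted p under 0.05, edgeR 0, DESeq2 11). After Pck1, the smallest p values were those of Mccc1, a subunit of the leucine-degrading carboxylase, and Plpp3, a lipid phosphatase. Mccc1 stood at 791, 596, 828 and 640.0 at the 4 times in the wild type and at 389, 448, 93.0 and 134 in the knockout. Plpp3 was lower late in the wild type (729 and 565 early, 229 and 158 late) and not in the knockout (382 and 312 early, 796 and 395 late). Neither passed (adjusted p = 0.803 for both).

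**Figure D3:**
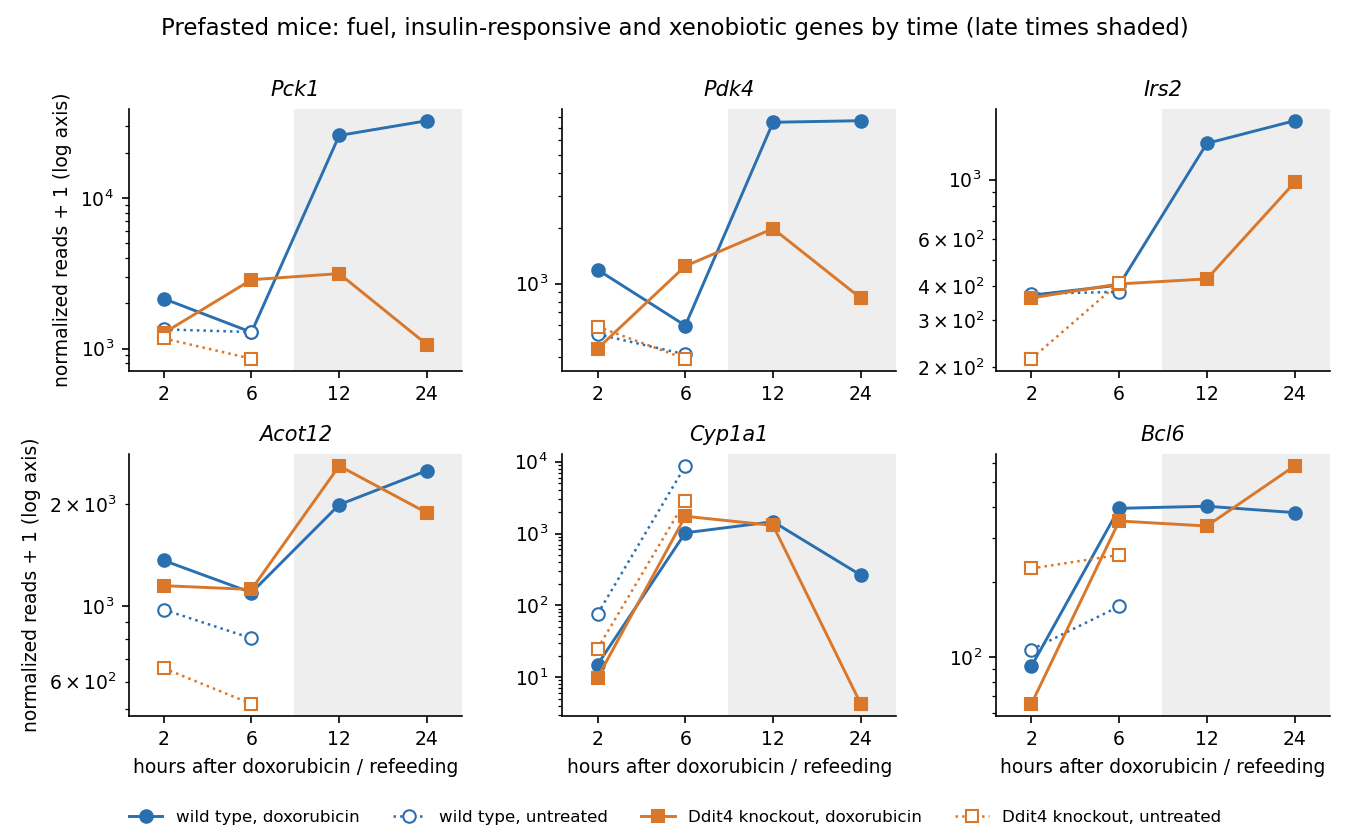
Normalized reads plus 1 (log axis, each panel with its own range) of 6 genes against hours after doxorubicin, with times evenly spaced and late times shaded. Each point is 1 library, with symbols for genotype and drug as in the legend. Pck1 reaches 26009.8 and 32583 in the late wild-type libraries and 3145 and 1062 in the late knockout ones, and Cyp1a1 and Bcl6 part the 2 h from the 6 h doxorubicin libraries.

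Within the early phase, 6 h against 2 h was tested in a fit of all 23 libraries, and 35 genes passed (0.293%, 17 higher and 18 lower at 6 h). The comparison uses the same 4 early libraries as that of late with early. Cyp1a1, a monooxygenase induced through the aryl hydrocarbon receptor (mm10, chromosome 9, 57687928 to 57703824), rose from 14 and 8.85 at 2 h to 1022 and 1738 at 6 h (log2 6.78 ± 1.06, adjusted p = 0.0176). It stood at 1460.4 and 1296 at 12 h and 262 and 3.24 at 24 h, so that late and early overlapped. Undrugged refed mice went from 74.9 and 24.0 to 8746 and 2829 between the same times. Bcl6, a transcriptional repressor (mm10, chromosome 16, 23965052 to 23988852), rose from 91.0 and 64.1 to 393 and 349 (2.26 ± 0.34, adjusted p = 0.015) and stood between 334 and 581 late. Without the drug it had 106 and 225 at 2 h and 159 and 256 at 6 h. Dusp3, a phosphatase, and Cntnap1, a contactin-associated protein, rose by 3.69 ± 0.67 and 3.26 ± 0.56.

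Among genes that fell, Tfrc, the transferrin receptor that imports iron (mm10, chromosome 16, 32608920 to 32632794), went from 2188 and 2728 at 2 h to 546 and 495 at 6 h (-2.23 ± 0.29, adjusted p = 0.0106). It stood at 292 to 448 late, below all early libraries (-1.65 ± 0.54, adjusted p = 0.85 on the 8 libraries, 0.00522 on all 23). Undrugged refed mice had 3495 and 2984 of Tfrc at 2 h and 1886 and 909 at 6 h. Pbk, a mitotic kinase, fell by 3.97 on the log2 scale, Neu3, a sialidase, by 3.04 and Cbx7, a Polycomb subunit, by 2.62.

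The number of genes called at 6 h against 2 h depended on single libraries. It was 76 without the wild-type 2 h library, 0 without the wild-type 6 h library, 3 without the knockout 2 h library and 497 without the knockout 6 h library. It was 17 without the 3 undrugged libraries that lack Y-linked reads and 50 without the undrugged wild-type 6 h library, which included 34 of the 35. Of the 35 genes, 15, 1 and 33 were in the 76, the 3 and the 497. The edgeR test called 16 and DESeq2 345.

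Within the late phase, 24 h against 12 h called no gene (0%, 943 at an unadjusted p under 0.05, edgeR 0, DESeq2 65). Genes with the smallest p values included Ptgr1, a prostaglandin reductase (1.72, adjusted p = 0.0949) and Cdr2, a cytoplasmic antigen (-1.42, adjusted p = 0.164). Ptgr1 stood at 3582 and 1442 at 12 h and at 7285 and 7660.5 at 24 h. Without the wild-type 12 h library 35 genes passed, and without the wild-type 24 h library, the one with pancreatic transcripts, 109.

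Late against early was then compared with the same contrast in mice fed ad libitum, whose early group lacks a knockout library at 2 h. The difference between feeding states called 0 of 11939 genes (0%, limma, 453 at an unadjusted p under 0.05, edgeR 0, DESeq2 4). The smallest p values were those of Mctp2, a calcium-binding membrane protein (-3.23, adjusted p = 0.597), Hsd17b6, a steroid dehydrogenase (1.86, adjusted p = 0.597), and H2-Q10, a nonclassical MHC class I gene with close paralogs (2.79 ± 0.58, adjusted p = 0.88). Mctp2 stood at 23.2 to 68.2 early and 7.29 to 18.4 late after the fast, and at 8.98 to 10.6 early and 25 to 42.2 late in ad libitum mice. The order of phases was thus opposite in the 2 feeding states. H2-Q10 stood at 14 to 55.7 early and 85.2 to 173 late after the fast, and at 274 to 538 and 193 to 376 in ad libitum mice.

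Other genes can be set side by side without a passing test of the difference. Hsp90aa1 had -1.07 after the fast and -0.35 fed ad libitum, where it stood at 954 to 1253 early and 829 to 896 late. The late ranges of Hsp90aa1 overlapped between the feeding states, while its early ranges did not, those after the fast being higher. Acot12, a cytosolic acetyl-CoA thioesterase, had 0.91 ± 0.16 after the fast (1096 to 1363 early, 1883 to 2589 late) and -0.12 fed ad libitum. Pim1 had 1.12 and -0.19. Cyp3a44, a cytochrome P450, had -1.99 ± 0.32 (198 to 482 early, 61.0 to 123 late) and -0.59. Olfm4 had -3.41 and -2.97. Across lists, the heat shock median was -0.58 after the fast and -0.19 fed ad libitum.

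**Figure D4:**
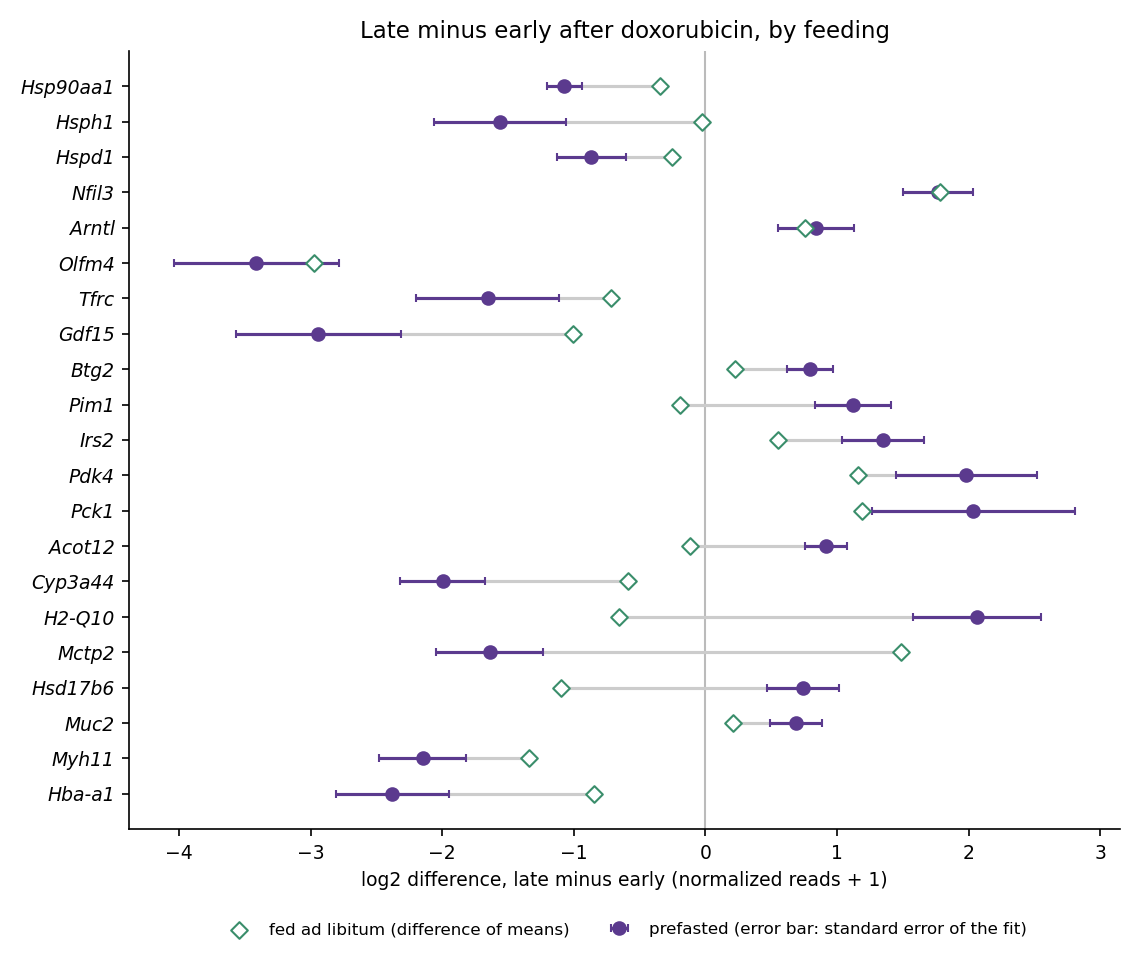
Log2 difference, late minus early, of 21 genes after doxorubicin in prefasted mice (filled circles, bars give the standard error of the fit) and in mice fed ad libitum (open diamonds, difference of means, no error shown). Nfil3 has 1.77 and 1.78, while Mctp2 has -1.64 and 1.49.

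Protein synthesis and respiration genes mostly had small negative differences. Of 37 cytosolic ribosomal protein genes, 36 had a negative difference, with a median of -0.53, and 2 lay below without overlap (1.83% of all genes), Rps19 (590.4 to 1419.9 early, 311 to 551 late) and Rpl18. The median was -0.25 without the knockout 2 h library and -0.31 without the knockout 12 h library. Without the wild-type 6 h library 8 of 37 lay below (all genes: 3.94%), without the wild-type 24 h library 7 (3.1%), and in the knockout alone 22 (18%). The median was -0.18 in the wild type and -0.865 in the knockout. Of 27 oxidative phosphorylation genes 25 were negative, by a median of -0.10, with Cox6c, a subunit of cytochrome oxidase, the 1 without overlap (6 without the wild-type 6 h library, where 3.94% of all genes lay below). The oxidative phosphorylation median was 0.098 in the wild type and -0.339 in the knockout. Of 21 unfolded protein response genes 14 were negative. Only Hyou1, an endoplasmic reticulum chaperone, did not overlap (1318 to 2073 early, 968 to 1139.6 late), where 1.83% of all genes lay below. Without the wild-type 6 h library 3 of 21 lay below (all genes: 3.94%).

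Markers of blood and muscle held genes that lay below without overlap, and none passed. Erythroid genes, the transcripts of red cells, were lower in every late library for all 4 tested, against 1.83% of all genes, with a median of -2.68. Hba-a1, an alpha globin gene with a near-identical copy (mm10, chromosome 11, 32283511 to 32284465), stood at 257 and 652 at 2 h, 209 and 277 at 6 h, 71.2 and 129 at 12 h and 20.7 and 64.8 at 24 h (-2.38 ± 0.43, adjusted p = 0.551, DESeq2 6.75e-05). With Hba-a2, which had too few reads to be tested, the 5 listed genes summed to 632 to 1637 early and 72.5 to 402 late. Smooth muscle genes had a median of -1.03, with 6 of 7 negative and 2 of 7, Myh11 and Actg2, without overlap (1.83% of all genes). Myh11, smooth muscle myosin (mm10, chromosome 16, 14194535 to 14291372), stood at 233 and 175 at 2 h, 198 and 105 at 6 h, 83.5 and 22.4 at 12 h and 36.8 and 29.2 at 24 h (-2.15 ± 0.33, adjusted p = 0.35, DESeq2 1.31e-05). The smooth muscle median was -1.57 in mice fed ad libitum. The summed list, in which Mylk dominates, overlapped at 3369 to 4232 early and 2762 to 4696 late. Without the wild-type 24 h library 4 of 7 lay below (all genes: 3.1%) and in the knockout alone 5 (18%). The part of blood and muscle content in the other differences was not tested.

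In the immune lists early and late values overlapped for all genes but H2-Q10, given above. It was 1 of 15 MHC class I genes (1.9% of all genes lay above), of which 14 were positive with a median of 0.185. MHC class II genes, which present antigen, were positive for 8 of 8 with a median of 0.72 and none without overlap, and Cd74, the class II invariant chain, stood at 68962 in the knockout at 12 h and between 989 and 23609 in the other 7. The class II median was 0.035 in the wild type, 1.289 in the knockout and -0.591 in mice fed ad libitum. Intraepithelial lymphocyte genes were positive for 11 of 11 with a median of 0.43, none without overlap. With the members of few reads that were not tested, 13 genes summed to 3884 to 8688 early and 6911 to 16052 late. Interferon-stimulated genes had a median of 0.31. Fat tissue genes were negative for 8 of 8 with a median of -0.72. Fabp4, a fatty acid carrier, was the 1 without overlap, where 1.83% of all genes lay below. Pancreatic acinar genes summed to 3403 in the wild-type 24 h library and to 396 to 757 in the others. Of the mucosal defence genes, Duox2, an oxidase, stood at 0 to 609 early and 0 to 881 late and Reg3g, an antibacterial lectin, at 3838 to 155104 early and 6989 to 74879 late, with no order by phase.

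**Figure D5:**
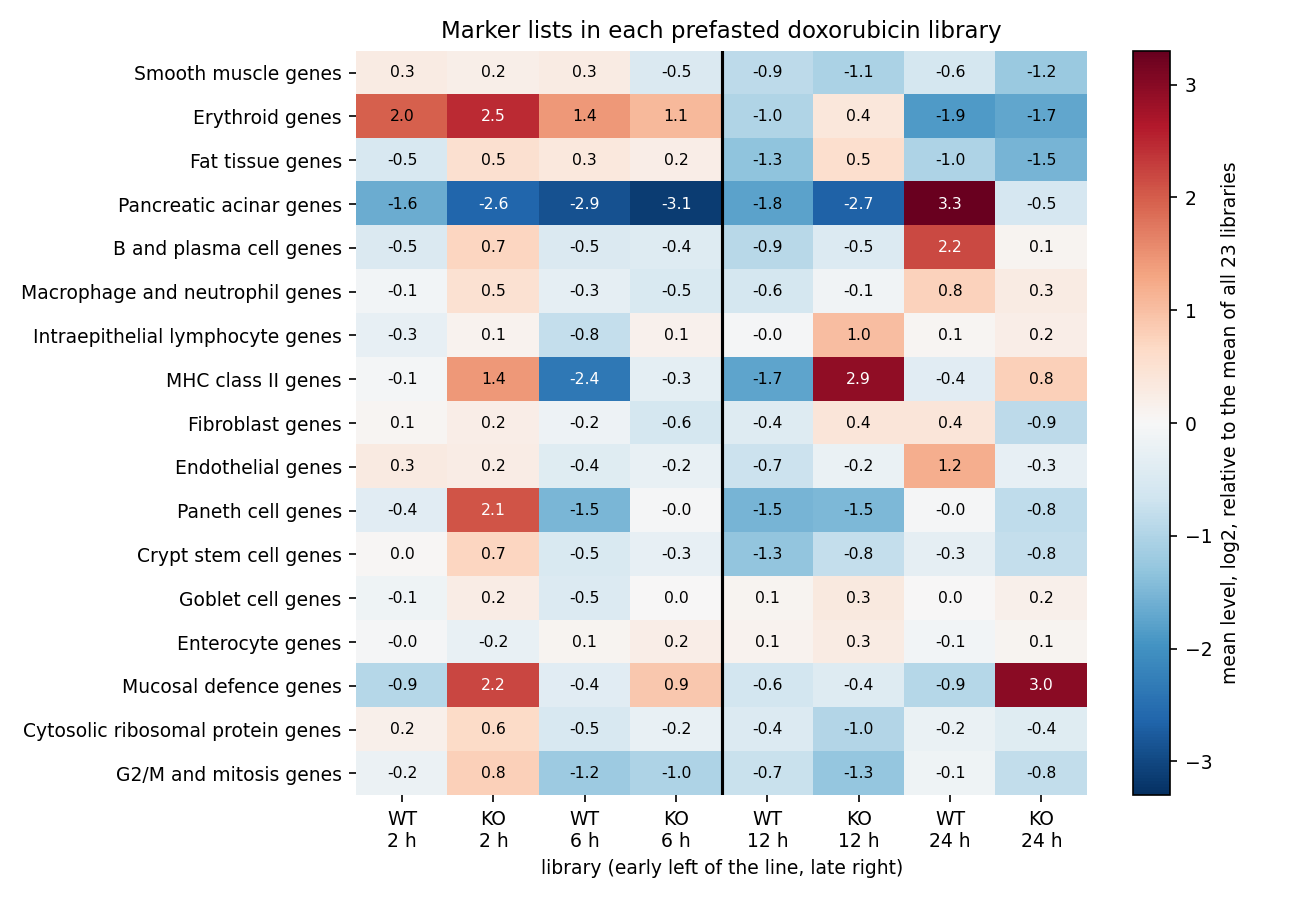
Mean log2 level of 17 marker lists in each of the 8 libraries, relative to the mean of all 23 libraries (red above, blue below), early libraries left of the line. Erythroid genes are above 0 in the 4 early libraries and at or below 0.4 in the late ones, and pancreatic acinar genes reach 3.27 in the wild-type 24 h library.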

How the data were processed

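RNA was extracted from whole proximal intestine, and poly-A selected, non-directional libraries were read from both ends for 150 bases, per the labels' protocols, so reads of a gene and of an antisense or overlapping partner cannot be told apart. Per the submitters' processing notes, Trim Galore, STAR and DESeq2 were used with the build mm10, and the read counter, annotation and versions are not given in the sources used here. The deposited signal values are read counts that the authors divided by 1 size factor per library, without a log (16259 genes, 23 libraries). Whole reads were recovered from them: in every library 100% of them came out whole to within 0.01 (11.42 to 23.43 reads per library, in units of 1e+06). In the undrugged ad libitum wild-type library 1 read stood for 0.991 normalized reads, too close to 1 to tell scaled from unscaled counts, so it was kept out of count tests, which left 22 in those of all libraries.

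The 11939 genes that averaged 10 normalized reads or more across the study were tested on log2(value + 1) with limma 3.58.1 (lmFit, eBayes with a trend, R 4.3.3), two-sided, with Benjamini-Hochberg adjustment over all of them and a threshold of 0.05. Folds are on that scale, which understates the change of low genes, and errors are standard errors. Late against early was fitted to the 8 libraries with genotype, the genotype difference with a genotype by phase term (4 residual degrees of freedom), the feeding difference to all 15 doxorubicin libraries (10), and single times to all 23 in 12 conditions plus genotype (10). Nothing in the labels says whether mice were pooled.

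Members, tests and 57 gene lists were chosen with earlier results of these data known. Rules named up to 8 rises and 8 falls past the threshold that averaged 50 or more and had no overlap, for late against early, 3 members of up to 12 lists, 4 rises and 4 falls of each other test (or the 3 smallest p where none passed), and a fixed set. List members are counted by whether all late libraries lie above or below all early ones, since no member passed. Alternatives were pseudocounts of 0.5 and 5, a minimum mean of 50 or none, quantile and TMM scaling, array weights, no genotype term, edgeR 4.0.16 and DESeq2 1.42.0 on recovered reads, subsets of times and genotypes, and each library left out. Leaving out the libraries that stand apart, hold pancreatic transcripts or lack Y-linked reads (fewer than 20 normalized reads over 4 genes) was chosen after seeing the data. Some genes that the rules name are not reported here. The code was tested on simulated data. Gene positions are from GENCODE M21 (16046 of 16259 symbols matched) and promoters from RefSeq.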

Additional observations from a re-analysis of the deposited data

Results flagged for a closer look

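In 236 groups of gene or list values, a library was sought that lay far from the other 3 of its phase. There were 12, close to the 1 in 20 that chance gives, so they are listed and not read as results. Many of the genes had been chosen after their values were seen, and the libraries of a phase differ in time and genotype. The measure is the gap of the highest or lowest library to its nearest neighbour, as a share of the range of the phase. Among genes, the knockout 12 h library was high for Cyp3a44, with 123 normalized reads against 61.0 to 64.8 (share 0.915). The knockout 6 h library was low for Spc25, with 34.6 against 81.8 to 95.7 (0.845), so the early values of this gene without that library lie farther from the late ones. Cpa1, a pancreatic protease, had 7.0 normalized reads in the wild-type 2 h library and 0 in the other early ones (1.0). Mavs, an adaptor of RNA sensing, was low in the wild-type 2 h library, at 2235 against 2882 to 2985 (0.879), and Lpin2, a phosphatidate phosphatase, in the knockout 24 h library, at 1681 against 3226 to 3633 (0.846).

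Among lists, given as the mean log2 level relative to all 23 libraries, the knockout 12 h library was low for DNA repair genes, at -0.47 against 0.03 to 0.11 (0.861), and for xenobiotic metabolism genes, at -0.48 against -0.06 to -0.009 (0.901). The wild-type 6 h library was high for regenerating epithelium genes, at 0.43 against -0.20 to -0.13 (0.898), and low for enteroendocrine genes, at -0.82 against -0.10 to 0.03 (0.851). Mucosal defence genes were high in the knockout 24 h library, at 2.98 against -0.94 to -0.43 (0.871). B and plasma cell genes were high in the knockout 2 h library, at 0.70 against -0.47 to -0.42 (0.956). Smooth muscle genes were low in the knockout 6 h library, at -0.48 against 0.20 to 0.27 (0.91).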

How the results depend on the processing

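No paired analysis was possible, since the labels link early and late libraries only by genotype, which was fitted as a covariate. The count of genes at late against early, 0 in limma, was 4 with no filter on low values, 19 in DESeq2, 11 in the fit of all 23 libraries, 9 in that fit without the 3 Y-lacking libraries and 16 without the undrugged wild-type 6 h library, 1 in the wild type alone (Pck1, log2 4.13, adjusted p = 0.0193) and between 0 and 1 when 1 library was left out (Slc20a1, without the knockout 12 h library). The genotype difference, 0, was 17 with no filter and 11 in DESeq2, and the feeding difference, 0, was 1 and 4. At 6 h against 2 h, 35 became 15 with no filter, 18 with quantile scaling, 16 in edgeR, 345 in DESeq2, 17 without the 3 Y-lacking libraries, 50 without the undrugged wild-type 6 h library and 0 to 497 without 1 library. All 15, 18 and 16 were among the 35. At 24 h against 12 h, 0 became 65 in DESeq2 and 0 to 109 without 1 library. The cause of these shifts was not tested. For lists, counts without overlap moved, and so did the shares of all genes, from 1.83% below and 1.9% above. Without the wild-type 6 h library, 3.94% of all genes lay below. Lower members were then 10 for heat shock (from 5) and 8 for ribosomal genes (from 2). They were 6 for oxidative phosphorylation, 4 for Paneth, 3 for unfolded protein response and 2 each for G2/M and S phase genes (all from 1). Above lay 3.99% of all genes, 3 tuft genes (from 2) and 2 Arntl phase genes (from 1). Without the wild-type 24 h library, 3.1% of all genes lay below. Lower members were then 7 for ribosomal genes, 4 for smooth muscle and 4 for p53 targets (all from 2). They were 3 each for G2/M and Paneth genes and 2 each for stem cell and S phase genes (all from 1). Above lay 3.05% of all genes and 3 enteroendocrine genes (from 2). In the knockout alone 18% of all genes lay below. Lower members were 10, 5, 6 and 22 for heat shock, smooth muscle, stem cell and ribosomal genes, with a stem cell median of -0.97. Of the values of named genes under the alternatives, 803 kept their sign and side of the threshold, 40 newly passed, 38 no longer passed and 30 turned sign, the last in 8 genes. Ddit4 (-0.48 in limma on the 8 libraries) had 0.184 with a pseudocount of 5, 0.173 in edgeR and 1.149 in the wild type. Without 1 library it had -1.298 to 0.016, and in the knockout alone, where few or no reads of it remained, -2.106. In the knockout alone the values were -0.088 for Cdkn1a, 0.012 for Mdm2, -0.006 for Ccng1, -0.248 for Fkbp5, -0.060 for Pck1 and -0.362 for Reg3g. With 6 h as the only early time Mdm2 had 0.099 and Ccng1 -0.101, and with 12 h as the only late time Ccng1 had -0.092, Per2 0.035 and Reg3g -0.238. Reg3g also had -0.064 with quantile scaling, -0.001 with TMM, -0.340 in edgeR and -0.346 in DESeq2. Without 1 library the ranges were -0.045 to 0.294 for Cdkn1a, -0.520 to 0.004 for Mdm2, -0.035 to 0.114 for Ccng1, -0.043 to 1.405 for Fkbp5 and -0.564 to 0.724 for Reg3g. Depth limits genes of few reads such as Lgr5 and Insrr.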
